A study of Mus musculus with 31 samples.

Results

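MicroRNAs are cut out of longer transcripts, and many of those transcripts are, or overlap, the RNA of another gene, called the host gene. Here 10 host genes or transcripts of microRNAs made in mouse embryonic stem cells were followed after loss of Dicer1, the enzyme that cuts microRNA hairpins into mature microRNAs: Mir17hg, Mcm7, Smc4, Larp7, Vmp1, Sfmbt2, Meg3, Rian, Mirg and the Mir294 precursor gene. They were chosen by name, and all 10 were found among the 46130 genes of GENCODE M21 that had an exonic entry in the expression table. The question was whether their transcription moves when the microRNAs they encode are lost. The study held 31 libraries. Small RNA was sequenced in 15 of them, all from the conditional Dicer mutant and taken after 0, 4, 8, 10 or 12 days in 800 nM 4-hydroxytamoxifen (4-OHT), with 3 replicates a day. The other 16 libraries came from 2 WT and 2 Dicer depleted cultures, both with 8 days of treatment in the labels, which were given a pulse of 200 uM 4-thiouridine (4sU) lasting 10 or 15 minutes. Each culture and labelling time gave labelled RNA, made during the pulse, and preexisting RNA, which the pulse did not mark. The titles of the preexisting libraries end in tot. Cells of all groups were XY embryonic stem cells of the lines DTCM23/49, grown without feeder cells on gelatin with LIF and serum. The source of WT and depleted libraries alike is named as conditional Dicer mutant cells, and the labels do not say whether WT cells received 4-OHT.

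Drosha and its partner Dgcr8 crop a hairpin from the host transcript in the nucleus, and Dicer1 then trims the hairpin in the cytoplasm, so the host transcript is made upstream of the step removed here. A hairpin in an intron can be cropped without loss of the spliced mRNA, whereas cropping a hairpin from an exon destroys the transcript. Mature microRNAs pair with target mRNAs mainly through the seed, bases 2 to 8 from the 5′ end, and lower their stability and translation.

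In all, 158 mature microRNAs were assigned to the hosts: 140 lie within the span of 9 of the host genes, and 18 belong to the miR-290 cluster, of which 2 lie within the Mir294 gene itself and 16 beside it. Of the 158, 84 had a mature sequence in the RefSeq table for GRCm38.p6, with 66 different seeds, and 3 seeds occurred in more than one host. None of the 70 microRNAs of Sfmbt2 was matched. The sequences shown first are those shared between hosts, since there several hosts encode microRNAs of the same targeting letters. They are written 5′ to 3′ with the seed in capitals. The seed AUUGCAC was encoded in Mir17hg, Mcm7 and Larp7, and its carriers summed to 23940 RPM at day 0 (a depth-scaled read count, with every read of a library in the total).
miR-92a-3p: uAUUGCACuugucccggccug
miR-25-3p: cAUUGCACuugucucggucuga
miR-367-3p: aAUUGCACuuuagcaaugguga

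The seed AAGUGCU, typical of pluripotent cells, was encoded in the miR-290 cluster that holds Mir294 and in the miR-302 cluster inside Larp7, and its 5 carriers with a RefSeq sequence summed to 23220 RPM. The seed AAAGUGC, the same letters moved by a base, was encoded in Mir17hg and Mcm7, at 1803 RPM over its 4 carriers. Examples of each are given here.
miR-295-3p: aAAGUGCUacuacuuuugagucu
miR-294-3p: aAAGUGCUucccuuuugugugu
miR-302d-3p: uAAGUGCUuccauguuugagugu
miR-17-5p: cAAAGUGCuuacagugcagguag
miR-93-5p: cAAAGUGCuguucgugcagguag

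Among the matched microRNAs, those of Vmp1, Smc4, Mirg, Rian and Meg3 shared no seed with another host. Shown are the most abundant microRNA of Vmp1 (miR-21a-5p), of Smc4 (miR-15b-5p, with miR-16-5p of the same seed), of Mirg (miR-541-5p), of Rian (miR-341-3p) and of Meg3 (miR-770-3p).
miR-21a-5p: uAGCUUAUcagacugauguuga
miR-15b-5p: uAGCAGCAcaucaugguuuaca
miR-16-5p: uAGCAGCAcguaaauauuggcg
miR-541-5p: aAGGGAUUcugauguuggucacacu
miR-341-3p: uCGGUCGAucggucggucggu
miR-770-3p: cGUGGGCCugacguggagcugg

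The hosts carried their hairpins in different ways. Mir17hg (GRCm38 chr14:115042879-115046727, plus strand) is a long noncoding RNA with all 12 of its mature microRNAs in exonic sequence. Mcm7 (chr5:138164583-138172422, minus strand) holds the miR-106b, miR-93 and miR-25 hairpins, Smc4 (chr3:69004738-69034623, plus strand) the miR-15b and miR-16-2 hairpins in introns, and Sfmbt2 (chr2:10370510-10595253, plus strand) 70 mature microRNAs from 72 hairpins, all intronic. Larp7 (chr3:127536714-127553349, minus strand) holds the 5 hairpins of the miR-302 cluster (miR-302a to d and miR-367) in introns, but on the opposite strand. The miR-21a hairpin (chr11:86584067-86584158) lies on the minus strand in the last exon of Vmp1 (chr11:86583865-86683836). Meg3 (chr12:109541001-109571726), Rian (chr12:109603940-109661716) and Mirg (chr12:109729764-109749460) follow one another on the plus strand of the imprinted Dlk1-Dio3 region, with 3, 6 and 27 mature microRNAs. Mir294 is an 84-base precursor gene (chr7:3220641-3220724, plus strand) in the miR-290 cluster, whose 18 mature microRNAs were counted together. Of these 18, 14 lie on the strand of Mir294 and 4 on the opposite strand.

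The hosts' own microRNAs were nearly gone in the mutant at day 8, the treatment day of the 4sU libraries. No small RNA library was WT, and the labels tie none to a 4sU culture, so the loss in those cultures was not measured. Of the 59 hosted mature microRNAs with enough counts to test, 55 fell and 1 rose at day 8 against day 0 (edgeR quasi-likelihood test, adjusted p under 0.05). Of all 260 microRNAs tested, 93.8% were called, 90.0% lower and 3.85% higher. At day 4 it was 40 lower and 2 higher, with 54.2% of all microRNAs called, 51.2% lower and 3.08% higher. At day 12 it was 57 lower and none higher, with 93.5% of all called, 92.3% lower and 1.15% higher. The hosted microRNAs fell by a median of 5.46 on the log2 scale at day 8, against 4.94 for all 260. Depth was 11134202 to 16216368 reads a library, and microRNAs took 15.8 to 21.3% of reads at day 0 but 0.88 to 1.48% at day 8. When counts were instead scaled to the other microRNAs (TMM), the calls over all microRNAs at day 8 were 89 higher and 84 lower, so the falls are stated against all reads.

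The miR-290 cluster was the most abundant of the 10 hosted groups at day 0 with 35440 ± 4580 RPM (SD, n = 3), and 2.65% of it was left at day 8. The 3 libraries held miR-295-3p, its leading member, at 21700, 22340 and 18070 RPM at day 0 and at 611.4, 366.9 and 437.4 RPM at day 8 (log2 difference -5.46, SE 0.29, edgeR adjusted p = 1.47e-14). Mir17hg followed with 23250 ± 3900 RPM, of which miR-92a-3p made up 93.8%, and 2.89% was left at day 8. miR-92a-3p is made from 2 loci, so its reads cannot be given to Mir17hg alone. The Mcm7 microRNAs went from 3753 ± 510 to 108.5 ± 25.6 RPM (2.89% left).

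The share left at day 4 ranged widely over the hosts. The microRNAs of the miR-302 cluster inside Larp7 were down to 15.5% of their day 0 level by day 4, from 2615 ± 204 to 405.1 ± 34.9 RPM, and 7 of 7 tested passed. miR-302d-3p stood at 977.8, 1026 and 878.4 RPM at day 0 and at 143.4, 143.5 and 165.8 RPM at day 4. The microRNAs of Rian (21% left), Meg3 (21.7%), Mirg (26.6%) and Sfmbt2 (36.8%) were next in order at day 4. The Meg3 sum rested on 4, 11 and 6 counts at day 4, and 6 of the 70 Sfmbt2 microRNAs had enough counts to test. The Vmp1 microRNAs were at the other end, with 86.7% left at day 4 and neither of 2 past the test. miR-21a-5p was at 8007, 8851 and 6456 RPM at day 0, at 4871, 8314 and 7005 RPM at day 4 and at 902.5, 558.3 and 473.1 RPM at day 8. The day 0 and day 4 libraries overlapped, while every day 8 library lay below both. At day 8 miR-21a-5p had fallen (log2 difference -3.59, SE 0.32, edgeR adjusted p = 2.82e-11) with 8.29% left. Scaled to the other microRNAs by TMM, the same comparison gave 1.36, in the opposite direction (edgeR adjusted p = 1.24e-06), so miR-21a-5p was lower against all reads and higher relative to the other microRNAs. Differences in the speed of loss between hosts were not tested.

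The Smc4 microRNAs were few, 137.9 ± 11.3 RPM at day 0 and 16.56 ± 10.3 RPM at day 8. miR-15b-5p fell from 131, 135.4 and 117.3 RPM to 7.002, 3.637 and 7.39 RPM, while its TMM-scaled difference was 0.55 (edgeR adjusted p = 0.0229). miR-16-5p was the hosted microRNA counted as higher at day 8, with 36, 41 and 20 counts at day 0 and 257, 27 and 93 at day 8 (log2 difference 1.70, SE 0.51, edgeR adjusted p = 0.00303). The second day 8 library lay within the day 0 range, and without the replicate 1 libraries the difference was 0.86 (edgeR adjusted p = 0.172). miR-16-5p is made from 2 loci, and reads set aside by the authors' counting for low alignment quality made up 40.1 to 65.8% of a library, so its level here is uncertain. The Meg3 microRNAs were at 2.265 ± 0.655 RPM at day 0 and none of the 3 had enough counts to test; miR-770-3p was at 1.417, 2.335 and 1.227 RPM at day 0 and at 0 in all 3 day 8 libraries.

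**Figure D1:**
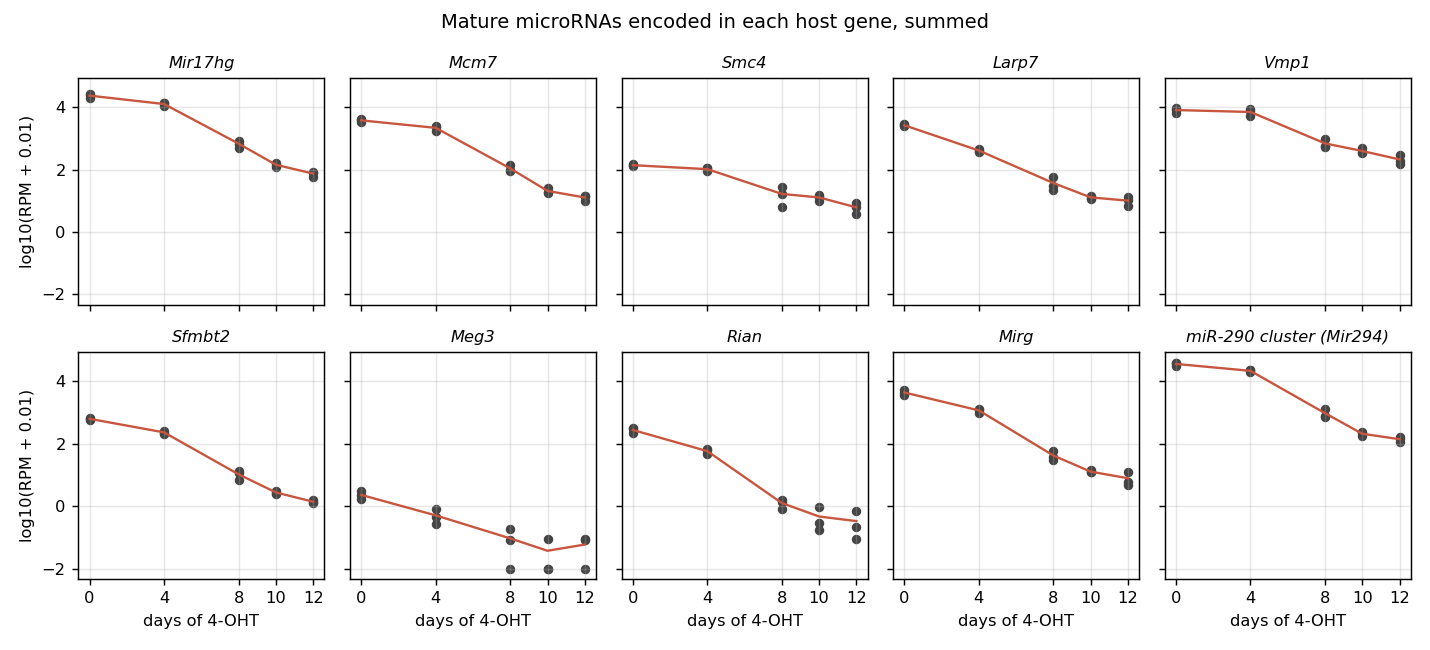
Summed level of the mature microRNAs encoded in each host, as log10 of RPM plus 0.01, against days of 4-OHT. Points are the 3 libraries of a day and the line joins their means; the Larp7 sum drops to 15.5% by day 4, while the Vmp1 sum is still at 86.7% then and at 8.57% on day 8.

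For the transcripts, values are in TPM, a share of transcripts scaled by length and depth, summed over a gene's exonic entries and separately over its intronic entries. Where 4 values are listed for a genotype, they are culture 1 at 10 and 15 minutes and then culture 2 at 10 and 15 minutes. Means ± SD are over the 2 cultures, and differences are on the log2(TPM + 1) scale. Dicer1 itself was checked first. Its exonic level in preexisting RNA was 13.4 to 17.9 TPM in WT and 1.2 to 3.37 TPM in depleted libraries (log2 difference -2.29, SE 0.25, limma adjusted p = 0.0347); 2.87% of all genes were lower in all 4 depleted libraries there. Labelled RNA held 7.34 to 9.65 TPM in WT and 2.35 to 3.52 TPM in depleted libraries, which did not overlap either, as for 4.5% of all genes, but missed the threshold (limma adjusted p = 0.143). The 10 stem cell markers summed to 988.4 to 1748.2 TPM over all libraries. The 8 fibroblast markers summed to at most 6.8 TPM, the 5 of primitive endoderm to at most 3.0, the 4 of trophoblast to at most 44.4 and the 5 of neural or mesoderm cells to at most 38.5. Most of the trophoblast sum was Tfap2c, at group means of 20.27 to 32.83 TPM, and 2 or 3 of its 4 markers were under 1 TPM in each group. The neural or mesoderm sum was 5.4 to 12.7 TPM in WT and 10.6 to 38.5 TPM in depleted preexisting libraries, and 10.2 to 13.9 and 5.8 to 27.3 TPM in labelled libraries; 4 of its 5 markers were under 1 TPM in each group. Its remaining marker Pax6, a transcription factor of neural progenitors, had a log2 difference of 0.79 in intronic labelled RNA (limma adjusted p = 0.0598) and of 0.85 in exonic preexisting RNA (limma adjusted p = 0.349), and the part of such cells in the host values was not tested. Intronic entries held 15.5 to 18.4% of the signal in WT labelled and 18.5 to 23.3% in depleted labelled libraries, so an average gene's intronic level was already higher in depleted cells, with a median log2 difference over all genes of 0.28. The median of all exonic differences was 0.06. The depth behind the 4sU values is unknown, and with 2 cultures a genotype only large differences can pass. Where cells or their RNA content differ between cultures, fewer molecules per cell and fewer cells cannot be told apart. P-values rest on a spread between these cultures that limma pooled over both genotypes and both fractions and adjusted with the spread of other genes.

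No host gene passed the test in exonic sequence. In labelled RNA 0 of 10 passed the limma test (adjusted p under 0.05; 3 of 10 had an unadjusted p under 0.05), where 0.128% of all 21821 genes tested were called and 13.6% had an unadjusted p under 0.05. The hosts' median log2 difference was 0.03, next to 0.06 for all genes. In preexisting RNA 0 of 10 passed (2 of 10 at an unadjusted p under 0.05), with 0.646% of all genes called and 17.8% at an unadjusted p under 0.05, and the medians were 0.06 for hosts and 0.04 for all genes. Mir294 counts among the 10 although it passed the minimum of 1 TPM only through labelled RNA.

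In unspliced, intronic sequence of labelled RNA, the reading closest to transcription, Vmp1 passed the test as 1 of the 9 hosts with introns. Of the 9, 8 lay above 0, as did 83% of all 12472 genes tested, and 3 had an unadjusted p under 0.05, next to 31.5% of all genes. The background was 4.23% of genes called, 522 higher and 6 lower, and the median was 0.54 for the hosts and 0.28 for all genes. In preexisting RNA 0 of 9 intronic sums passed, none with an unadjusted p under 0.05, and of all genes 0.016% were called and 21.2% had an unadjusted p under 0.05.

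**Figure D2:**
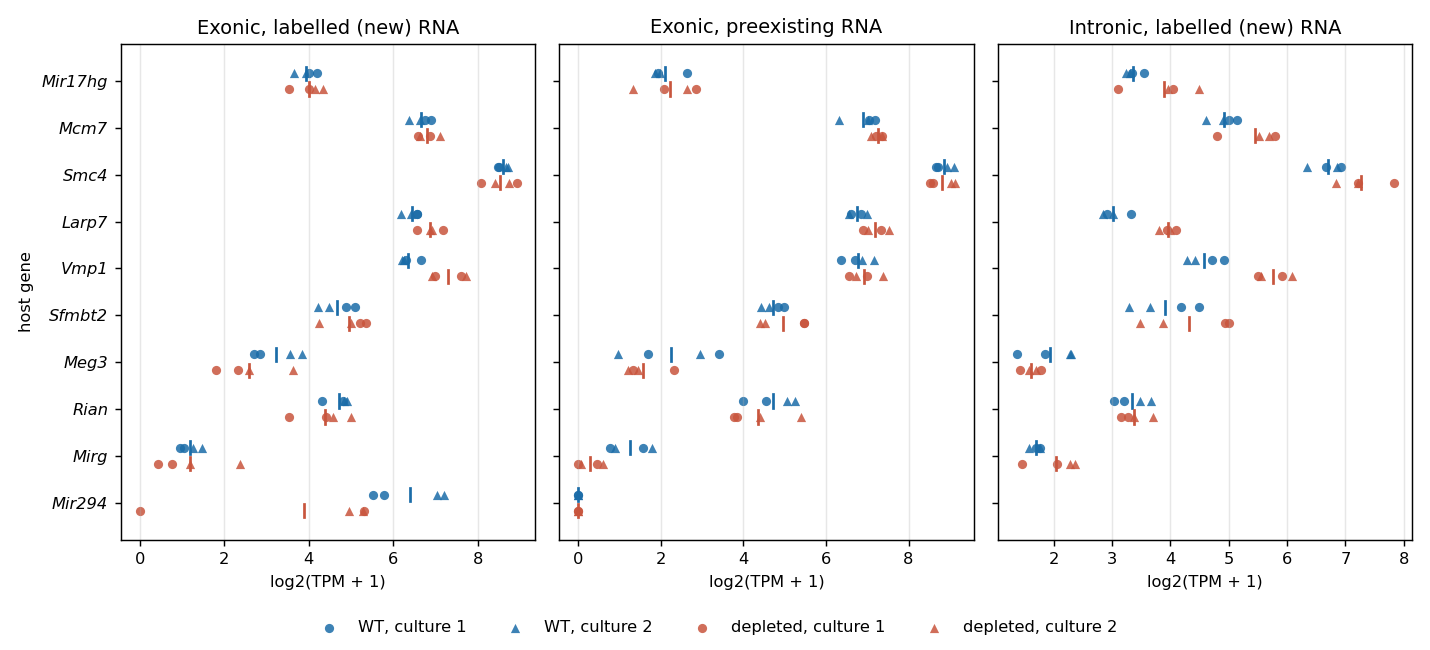
Level of each host gene as log2(TPM + 1) in the 4 WT and 4 depleted libraries of a fraction, for exonic labelled, exonic preexisting and intronic labelled RNA. Circles and triangles are the 2 cultures, vertical ticks the means. In intronic labelled RNA all depleted libraries of Vmp1 and of Larp7 lie above WT, as for 24.9% of all genes. In exonic labelled RNA Vmp1 lies above WT (10.9% of genes) and Mir294 below it (4.5%). In exonic preexisting RNA Mirg lies below WT (2.87%). The other hosts overlap.

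Vmp1, a membrane protein of the endoplasmic reticulum needed for autophagy and the host of miR-21a, showed the largest rise. Its intronic level in labelled RNA was 29.2, 25.1, 20.3 and 18.4 TPM in the WT libraries and 59.2, 44.5, 66.7 and 45.9 TPM in the depleted libraries. All depleted libraries lay above all WT libraries, as they did for 24.9% of all genes. The culture means were 23.24 ± 5.52 and 54.06 ± 3.15 TPM (SD, n = 2), with a log2 difference of 1.19 on the log2(TPM + 1) scale (SE 0.22, limma adjusted p = 0.0393), at percentile 98.8 of all genes. After each library was centred on the median gene, the difference was 0.90 and no longer passed (limma adjusted p = 0.19), and without any 1 of the 4 cultures it ranged from 0.95 to 1.42 (adjusted p 0.126 to 0.206). Exonic Vmp1 in labelled RNA was 99.6, 78.0, 75.2 and 72.4 TPM in WT and 193, 125, 209 and 119 TPM in depleted libraries, again without overlap, as for 10.9% of genes, and highest in the 10 minute libraries of the depleted cultures. That difference of 0.95 (SE 0.21, 95% interval 0.46 to 1.44) did not pass (limma adjusted p = 0.188). In preexisting RNA the exonic means were 110.5 (WT) and 122.7 TPM (depleted), a difference of 0.14 (interval -0.35 to 0.64). Taken from the labelled difference, this was lower by 0.81 on the log2 scale, and that contrast did not pass (limma adjusted p = 1; 0.00458% of genes called).

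The rise in intronic Vmp1 was uneven over its entries. Of the 8 intronic entries, those of transcripts ENSMUST00000145846 and ENSMUST00000150176 held 77.0% of the difference of 30.8 TPM; they were picked out after their values were seen. Both are forms of the last intron of the gene (chr11:86585452-86586495 and chr11:86585452-86586671, 1044 and 1220 bases), which ends where the last exon with the miR-21a hairpin begins, 1293 bases upstream of the hairpin. The first was at 5.94, 4.51, 2.55 and 3.00 TPM in WT and at 20.1, 11.6, 24.7 and 15.4 TPM in depleted labelled libraries, a 4.48-fold ratio of means (log2 difference 1.92, SE 0.27, limma adjusted p = 0.0123 over 29487 single intronic entries, of which 15.7% were called). The second was at 3.78, 3.01, 1.70 and 1.96 TPM in WT and at 13.2, 8.43, 17.2 and 10.8 TPM in depleted libraries (log2 difference 1.89, SE 0.23, limma adjusted p = 0.00972). They lay at percentiles 99.89 and 99.88 of all single intronic entries. The other 6 entries had ratios of 1.18 to 1.68, and together they gave 16.6 (WT) and 23.7 TPM (depleted). Of these, ENSMUST00000018315 (1.18), ENSMUST00000123590 (1.49) and ENSMUST00000153971 (1.51) also have introns that run up to the last exon. Shared reads were divided among all such entries, and where along the gene the rise lies was not tested. In preexisting RNA ENSMUST00000145846 was at 0.977 ± 0.48 TPM (WT) and 1.64 ± 0.555 TPM (depleted). ENSMUST00000145846 and ENSMUST00000150176 share most of their bases, so the counting program divided the same reads between them and they are not independent. Both calls were lost when 1 culture was left out (adjusted p up to 0.154) and after median centring (0.0857 and 0.0764).

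Exonic Vmp1 entries varied as well. In labelled RNA the entry with the largest level, ENSMUST00000123590, which ends near the 3′ side of the gene, went from 26.3 to 57.5 TPM (log2 difference 1.06, limma adjusted p = 0.144). ENSMUST00000143991 and ENSMUST00000127267, which lie wholly in the upstream part, had differences of 0.27 and 0.39, and ENSMUST00000139040, which lies upstream as well, had 0.50 (limma adjusted p = 0.442). The full-length transcript ENSMUST00000018315, the one with the hairpin in its exon, went from 11.4 to 22.6 TPM (0.90, limma adjusted p = 0.211). No exonic entry of Vmp1 passed, with 0.0535% of 50473 single exonic entries called. The row of the miR-21a hairpin itself was at 0 in all 16 libraries.

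**Figure D3:**
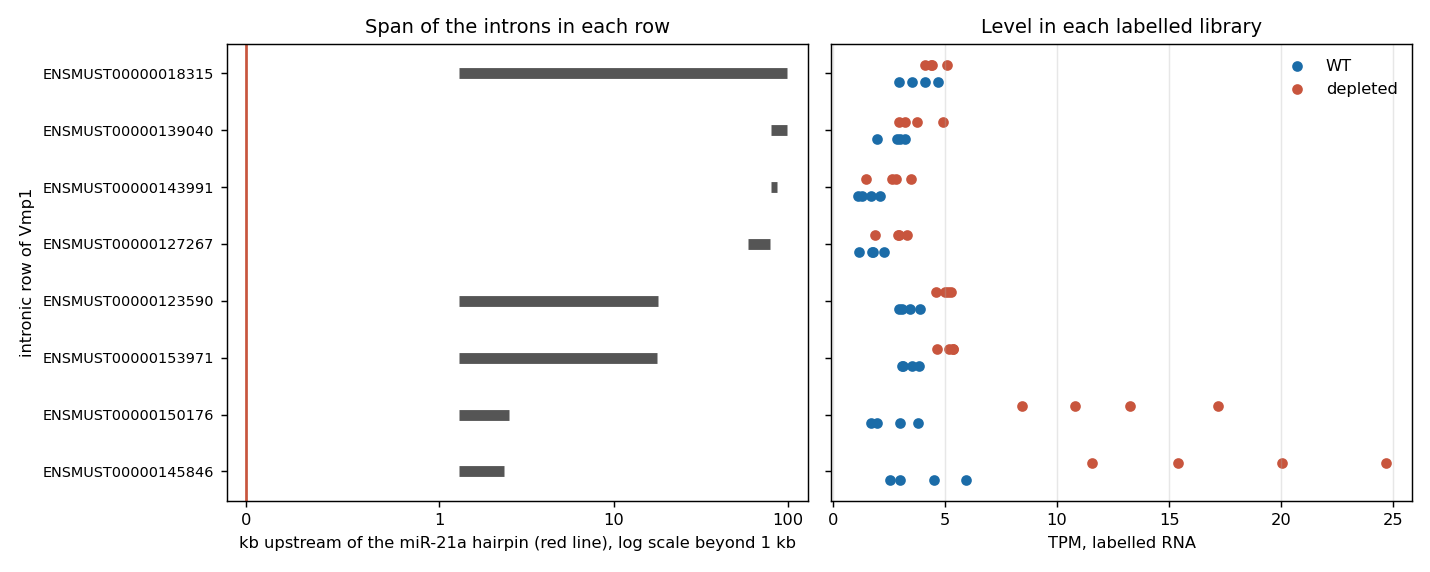
Intronic entries of Vmp1: left, the span of their introns in kb upstream of the miR-21a hairpin (red line at 0, log scale beyond 1 kb); right, TPM in the 4 WT and 4 depleted labelled libraries. The 2 shortest entries, next to the hairpin's exon, reach 8.43 to 24.7 TPM in depleted libraries against 1.70 to 5.94 TPM in WT, and the other 6 entries rise by ratios of 1.18 to 1.68. Of these 6, ENSMUST00000018315, ENSMUST00000123590 and ENSMUST00000153971 also run up to the hairpin's exon.

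Larp7, which binds and stabilizes the 7SK RNA that holds the elongation factor P-TEFb inactive, came next. Its intronic level in labelled RNA was 8.98, 6.50, 7.12 and 6.15 TPM in WT and 16.1, 14.4, 14.9 and 12.9 TPM in depleted libraries, which did not overlap, as for 24.9% of all genes. The log2 difference of 0.94 (SE 0.24, interval 0.38 to 1.49) missed the threshold (limma adjusted p = 0.0673). Exonic Larp7 averaged 85.94 (WT) and 118.2 TPM (depleted) in labelled RNA, a difference of 0.45 (SE 0.17, limma adjusted p = 0.306), and the difference in preexisting RNA was 0.44 (adjusted p = 0.225 by limma). The ranges of 71.3 to 93.9 TPM in WT and 93.1 to 144 TPM in depleted labelled libraries overlapped at 1 depleted library.

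Of the 4 single intronic entries of Larp7, ENSMUST00000195976 (introns within chr3:127544279-127547361, 1980 bases), which spans all 5 hairpins of the miR-302 cluster (chr3:127545228-127545807), went from 3.18, 2.15, 2.98 and 2.77 TPM in WT to 5.49, 6.28, 6.80 and 6.76 TPM in depleted labelled libraries. It was singled out after its values were seen. This difference of 0.96 (SE 0.14) passed (limma adjusted p = 0.0143), with 15.7% of all intronic entries called. The full-length entry ENSMUST00000029588, which also spans the hairpins, rose by 0.69 (limma adjusted p = 0.0243). ENSMUST00000197668, which spans none, had 0.56 (limma adjusted p = 0.0676). ENSMUST00000197698, which spans none either, was under the minimum of 1 TPM and was not tested, at 0.68 to 1.38 TPM in WT and 1.33 to 2.24 TPM in depleted labelled libraries, which overlapped. The difference between entries with and without the hairpins was not tested. The calls for ENSMUST00000195976 and ENSMUST00000029588 were lost without any 1 of the 4 cultures (limma adjusted p 0.0507 to 0.161 and 0.0509 to 0.171) and after median centring (0.0936 and 0.221). The clustered hairpins are on the opposite strand, and whether the authors' counting used strand is not given in the sources used here, so reads from the Larp7 intron and from a miR-302 primary transcript cannot be told apart.

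Mir17hg, the primary transcript of the miR-17-92 oncogenic cluster and a known target of Myc, had nearly equal means in exonic labelled RNA, 14.6 and 15.45 TPM. The libraries gave 15.2, 17.4, 11.5 and 14.2 TPM in WT and 15.0, 10.6, 19.4 and 16.7 TPM in depleted cells, which overlapped, for a difference of 0.06 (SE 0.29, interval -0.60 to 0.72). In preexisting RNA it was at 5.20, 2.83, 2.92 and 2.61 TPM in WT and 6.23, 3.21, 5.25 and 1.5 TPM in depleted libraries, a difference of 0.13 (interval -0.53 to 0.78). Its intronic level in labelled RNA was 8.42 to 10.7 TPM in WT and 7.59 to 21.5 TPM in depleted libraries (log2 difference 0.54, limma adjusted p = 0.295).

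Mcm7, a subunit of the MCM2-7 replicative helicase, and Smc4, a core subunit of condensin that compacts chromosomes, both serve dividing cells. Exonic Mcm7 in labelled RNA was 106, 117, 81.5 and 98.7 TPM in WT and 95.3, 116, 97.8 and 138 TPM in depleted libraries (difference 0.14, interval -0.33 to 0.62). In preexisting RNA it was 120.8 ± 24.8 and 152.7 ± 4.43 TPM (0.37, interval -0.11 to 0.84). Exonic Smc4 in labelled RNA was 355, 361, 405 and 420 TPM in WT and 483, 271, 425 and 337 TPM in depleted libraries, with a difference of -0.06 (interval -0.53 to 0.42). Its depleted libraries spread beyond the WT range on both sides. Intronic labelled differences were 0.54 for Mcm7 and 0.57 for Smc4 (limma adjusted p = 0.372 and 0.139), and became 0.25 and 0.29 after median centring.

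Sfmbt2, a Polycomb group protein whose intron holds a rodent microRNA cluster, was at 33.0, 28.3, 17.7 and 21.3 TPM in WT and 40.3, 36.1, 30.8 and 17.9 TPM in depleted exonic labelled libraries. The difference of 0.29 (interval -0.62 to 1.19) did not pass, and culture 1 lay above culture 2 in both genotypes on average. Its intronic labelled level showed the same split, 21.5 and 17.1 TPM in WT culture 1 and 11.5 and 8.82 TPM in WT culture 2, against 30.9 and 29.5 and then 13.7 and 10.1 TPM in the depleted cultures (difference 0.42, limma adjusted p = 0.584).

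Of the noncoding hosts of the Dlk1-Dio3 region, transcribed from the maternal chromosome, Meg3 and Mirg were the lowest hosts in exonic labelled RNA. Rian averaged 25.6 TPM in WT there, next to 25.08 TPM for Sfmbt2. Meg3 was at 5.50, 6.22, 10.7 and 13.4 TPM in WT and 2.48, 4.03, 5.01 and 11.4 TPM in depleted exonic labelled libraries, which overlapped (difference -0.65, SE 0.45, interval -1.69 to 0.39). Rian was at 27.1, 19, 28.8 and 27.5 TPM in WT and 20.1, 10.6, 30.9 and 22.9 TPM in depleted libraries (difference -0.34, interval -1.38 to 0.71). Mirg was at 0.954 to 1.76 TPM in WT and 0.341 to 4.23 TPM in depleted libraries. In preexisting RNA Mirg was at 1.99, 0.701, 0.852 and 2.44 TPM in WT and 0.00, 0.378, 0.05 and 0.521 TPM in depleted libraries, below WT in all 4 as for 2.87% of genes, but the difference of -0.97 (SE 0.38) did not pass (limma adjusted p = 0.245). Intronic labelled differences were -0.33 for Meg3, 0.03 for Rian and 0.34 for Mirg, none past the test. The coding neighbours Dlk1, Rtl1 and Dio3 were under the minimum of 1 TPM.

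**Figure D4:**
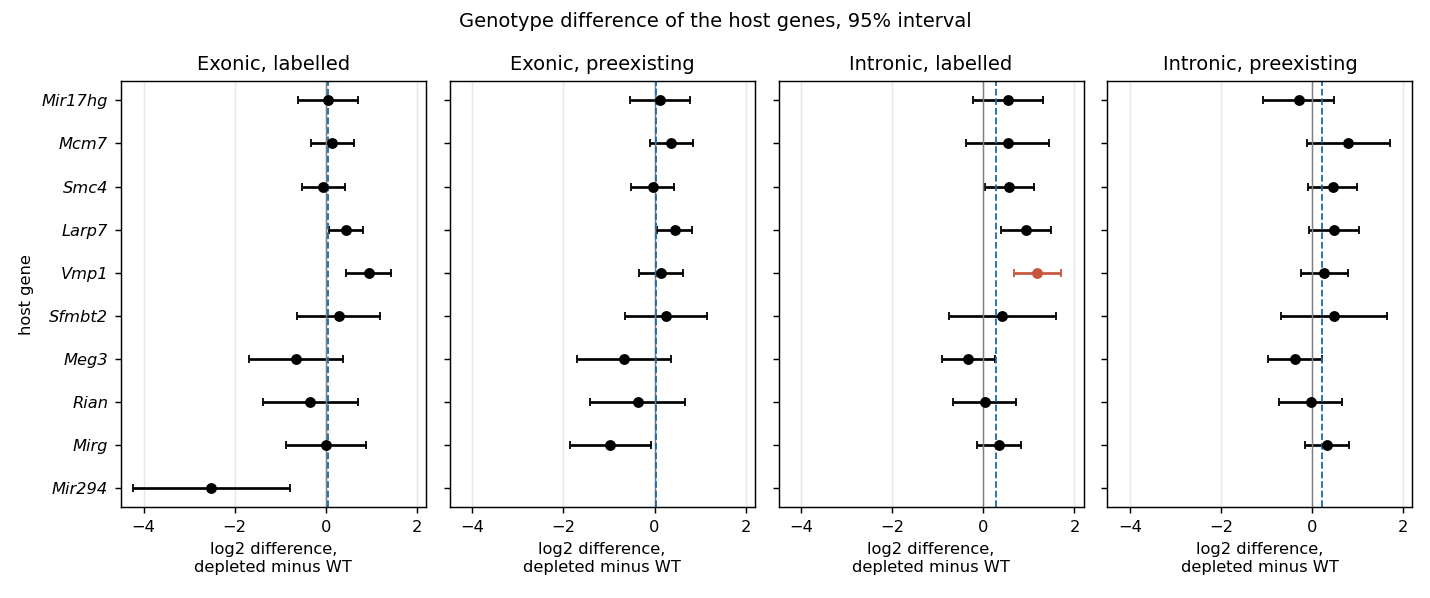
Log2 difference of each host gene, depleted minus WT, with its 95% interval from limma, for exonic and intronic RNA of the labelled and preexisting fractions. The dashed line is the median of all genes (0.06, 0.04, 0.28 and 0.21 from left to right); the red point, Vmp1 in intronic labelled RNA at 1.19, is the value past the adjusted threshold.

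Mir294, the precursor gene of miR-294 in the miR-290 cluster, was seen in labelled RNA and listed at 0 in all 8 preexisting libraries. The labelled libraries gave 54.3, 44.9, 147 and 131 TPM in WT and 38.7, 0, 38.1 and 29.8 TPM in depleted cells, which did not overlap, as for 4.5% of genes that were lower in all 4 depleted libraries, but limma did not call the difference (adjusted p = 0.252). These values probably rest on very few reads, although read counts were not at hand. Among the 62 entries of 84 bases, Mir294 included, the lowest value above 0 in a labelled library was 23.48 to 147.4 TPM. Mir294 was at 0 to 5.51 times that value. The 147.4 TPM is Mir294 itself, the 1 entry above 0 in WT culture 2 at 10 minutes. In the other labelled libraries the lowest value was 23.48 to 52.96 TPM. With Mir294 in the set, its ratio could not fall below 1 where it was above 0. Its neighbour Mir293 went the other way, from 8.48 to 34.5 TPM (limma adjusted p = 0.306), and Mir290a was at 6.37 and 11.42 TPM. The other 6 precursor entries of the cluster were at 0 in all 16 libraries. Over all hosts, 70 of 166 hairpin entries were at 0 in every library, but 119 of the 166 lie in Sfmbt2, where 29 were at 0. These entries follow GENCODE, which lists more hairpins in Sfmbt2 than the 72 of RefSeq. Every entry was at 0 in Larp7 (5), Mcm7 (3), Mirg (15), Meg3 (2), Smc4 (2) and Vmp1 (1). So were 4 of 6 in Mir17hg and 3 of 4 in Rian. The gene Nlrp12 (chr7:3218784-3249740, minus strand), named after its values were seen, overlaps the cluster on the other strand and averaged 8.889 (WT) and 10.06 TPM (depleted) in labelled RNA (difference 0.15, limma adjusted p = 0.872).

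Labelled and preexisting levels of the hosts were compared too. TPM is scaled to a fixed total in each library, so these differences place a gene against other transcripts. The new part of a host's RNA was not measured, and hosts were not tested against one another. In WT cells Mir17hg was higher in labelled than in preexisting RNA, at 14.6 ± 2.41 and 3.389 ± 0.88 TPM (log2 difference 1.85, SE 0.29, limma adjusted p = 0.00257), against 34.1% of all genes called and a median of 0.24. Mir294 is left out of this comparison, since it entered the test through labelled RNA alone and was listed at 0 in preexisting RNA. None of the other 8 hosts passed, with differences of -0.42 (Vmp1) to 0.99 (Meg3, limma adjusted p = 0.13). Mcm7 (-0.23), Smc4 (-0.27), Larp7 (-0.32) and Vmp1 (-0.42) lay below 0 without passing. After median centring their differences were -0.72, -0.75, -0.80 and -0.90 and all 4 passed (limma adjusted p = 0.0137 to 0.0351), so centring changed the call and not the direction. Vmp1 also passed with the 15 minute libraries alone (-0.54, limma adjusted p = 0.0487). Centring turned the balance of all calls from 5692 higher and 1742 lower to 3397 higher and 5147 lower. When either WT culture was left out, no gene passed this comparison by limma.

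Other genes were set beside the hosts. Of 33 other microRNA host genes, 26 were tested in exonic RNA, and none passed in labelled RNA by limma (adjusted p of at least 0.167; 6 of 26 at an unadjusted p under 0.05, next to 13.6% of all genes; 0.128% of all genes called), with a median of 0.18. In preexisting RNA Slit2, a secreted guidance factor and the host of miR-218-1, rose from 14.93 to 39.74 TPM (1.32, limma adjusted p = 0.0458), as 1 of 26 tested against 0.646% of all genes called. There 9 of 26 had an unadjusted limma p under 0.05, next to 17.8% of all genes. The list's median was 0.21, next to 0.04 for all genes, and the list was not tested as a set. In intronic labelled RNA Pank1, a pantothenate kinase and the host of miR-107, rose from 1.746 to 3.434 TPM (0.69, limma adjusted p = 0.0335), as 1 of 22 tested against 4.23% of all genes called, and the list's median was 0.30, next to 0.28 for all genes. Dleu2, the host of miR-15a and miR-16-1, went from 40.8 to 81.01 TPM in intronic labelled RNA without passing (0.97, limma adjusted p = 0.0549). In WT, 4 of the 26 were higher in labelled than in preexisting RNA (Mir22hg, Ftx, Mir124a-1hg and Dleu2) and 7 were lower. Of all 21821 genes, 5692 were higher and 1742 lower, 34.1% in all.

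No partner of the coding hosts passed the genotype test in exonic or intronic RNA: 0 of 6 MCM subunits, 0 of 8 condensin subunits and 0 of 7 genes of the 7SK and P-TEFb group (6 in intronic RNA) passed by limma in either fraction, with at most 2 members of a list at an unadjusted p under 0.05 in any of these comparisons. Of all genes, 0.128% (exonic labelled), 0.646% (exonic preexisting), 4.23% (intronic labelled) and 0.016% (intronic preexisting) were called. At an unadjusted limma p under 0.05 it was 13.6, 17.8, 31.5 and 21.2% in the same order. With so few genes and such shares, the counts do not set the partners apart from other genes. Mcm7 was the one MCM gene with a positive exonic labelled difference, the others running from -0.42 to -0.09, and the difference between Mcm7 and its partners was not tested. In intronic labelled RNA Larp7 was the highest of its group and Hexim2, which also inhibits P-TEFb, was at 0.77 (limma adjusted p = 0.126). Of 10 microRNA processing genes, Dicer1 was the one that passed, lower in exonic preexisting RNA, where 0.646% of all genes were called. Of 7 transcription factors known to act on host genes, Nanog rose in intronic labelled RNA from 23.52 to 48.3 TPM (1.00, limma adjusted p = 0.0339), against 4.23% of all genes called. None of the 7 was called in exonic RNA (1 at an unadjusted p under 0.05, in preexisting RNA, next to 17.8% of all genes).

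The gene whose exonic level was most like each host over the 16 libraries was also listed, among 17372 named genes. It was Gm43585 for Mir17hg (Pearson r 0.976), Pdgfa for Mcm7 (0.926), Gtpbp4-ps1 for Smc4 (0.946), Dnajc21 for Larp7 (0.932), Azin1 for Vmp1 (0.856), Zfp706 for Sfmbt2 (0.817), Syngr1 for Meg3 (0.932), Gm43078 for Rian (0.876), Tnnt1 for Mirg (0.845) and Snord14e for Mir294 (0.984). These values are descriptions, since the 16 libraries share cultures and fractions, and the contrast of labelled with preexisting RNA enters each.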

How the data were processed

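For 4sU RNA, the deposited signal is named TPM, but every column sums to 10 times the TPM total, so all 16 columns were divided by 10. Per the labels' protocols, the authors removed ribosomal reads with STAR 2.5.0, aligned the rest to exonic and intronic sequences and quantified them with RSEM. Rows were matched to GENCODE M21 (GRCm38) by transcript (110366 of 121429 exonic and 89935 of 91702 intronic rows) and summed per gene. The deposited small RNA counts are raw; per the submitters' processing notes, cutadapt 1.8, Bowtie2, HTSeq, miRBase and mm10 were used. Small RNA libraries held 11134202 to 16216368 reads.

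For each culture, log2(TPM + 1) was averaged over its 10 and 15 minute libraries, and limma 3.58.1 (trend) was fitted to 8 culture means in 4 groups, over genes with a mean of at least 1 TPM. Labelled and preexisting RNA came from the same cultures, but the fit treated the 8 means as independent. In exonic RNA, deviations of the fractions of a culture correlated by 0.397 in WT and 0.051 in depleted cells. A block by culture was an alternative for the contrasts between fractions. For microRNAs, edgeR 4.0.16 was used (quasi-likelihood test, all reads as library size). DESeq2 1.42.0 was an alternative. The SE printed with an edgeR difference is its absolute value divided by the square root of the test's F statistic. P-values are two-sided, adjusted over all features (Benjamini-Hochberg), and 0.05 was the threshold. The fits ran in R 4.3.3 and were tested on simulated data; tables were joined with pandas 2.3.3. Named were the 10 hosts, Dicer1, hosted microRNAs, the nearest gene of each host and members of fixed lists. The members and lists were chosen with earlier results of these data known. Replicate numbers of the 2 cultures and 3 small RNA libraries mark biological replicates in the labels and were not shown to pair samples.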

Additional observations from a re-analysis of the deposited data

How the results depend on the processing

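Over 53 results for the hosts and their single entries, 662 values under other settings were computed: 578 kept direction and side of the threshold, 31 lost the call, 6 gained it and 47 changed sign. For the leading microRNAs of the hosts and miR-16-5p, 240 values over 30 results gave 222, 5, 4 and 9 in the same order. The cause of these changes was not tested, and none of the sign changes in 4sU RNA touched a host value that passed the test, whereas under TMM some microRNAs that had passed changed sign.

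The number of genes called (limma) was fragile. For exonic labelled RNA it was 28, and 0 with a pseudocount of 0.1 TPM or with only the groups compared, 86 without a filter, 47 with a filter at 0.1 TPM, 15 after median centring, and 0 to 76 with a culture left out. For exonic preexisting RNA it was 141, and 0 without a filter or with only the groups compared, 1 with a filter at 0.1 TPM or with 10 minute libraries, 7 with 15 minute libraries, 40 after centring (21 higher, 19 lower), 267 with the replicate block, and 0 with any culture left out. For the difference of genotype effects it was 1, and 0 with a pseudocount of 0.1 TPM, with the replicate block and with the block by culture, 17 without a filter, 11 with a filter at 0.1 TPM, 18 and 23 with 10 and 15 minute libraries, and 0 with any culture left out. Labelled against preexisting RNA of WT gave 7434 genes, 3964 with 10 minute libraries and 0 to 6570 with a culture left out. Intronic labelled RNA gave 528, and 1 with a pseudocount of 0.1 TPM or after centring, 1061 without a filter, 1118 with a filter at 0.1 TPM, 28 with only the groups compared, 19 and 82 with 10 and 15 minute libraries, 1276 with the replicate block and 1 to 4 with a culture left out. Intronic preexisting RNA gave 2, and 882 with a pseudocount of 0.1 TPM, 1 without a filter, with a filter at 0.1 TPM or with 15 minute libraries, 0 with only the groups compared, 145 with the replicate block and 0 to 2 with a culture left out. A culture left alone in its group was assumed to vary like the others. MicroRNAs called (edgeR) were 244 at day 8, 141 at day 4 and 243 at day 12; without a filter they were 625, 290 and 658, and with only the 2 days compared 401, 329 and 392.

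Intronic Vmp1 in labelled RNA passed under 3 of 12 alternatives (no filter, filter at 0.1 TPM, replicate block; adjusted p 0.0236 to 0.206 over the 12), and the replicate block also brought intronic Larp7 past the threshold (adjusted p = 0.0265). The replicate numbers were not shown to pair the cultures: deviations of same-numbered WT and depleted cultures correlated by 0.162 and 0.219 in exonic and 0.493 and 0.184 in intronic RNA, with 2 pairs each. Small RNA libraries of the same number correlated by -0.195 to 0.303 across days, and not every library correlated best with its own number.

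These log2 differences changed sign. In exonic labelled RNA these were Mirg at -0.17 (pseudocount 0.1 TPM), -0.097 (centred) and -0.304 (10 minutes), Mir17hg at -0.046 (centred) and -0.225 (15 minutes), and Smc4 at 0.256 (10 minutes) and 0.103 (exonic plus intronic). With a culture left out, the ranges were -0.589 to 0.608 (Mirg), -0.181 to 0.302 (Mir17hg), -0.013 to 0.299 (Mcm7), -0.156 to 0.045 (Smc4), -0.052 to 0.624 (Sfmbt2) and -0.749 to 0.073 (Rian). In exonic preexisting RNA they were Mir17hg at -0.196 (15 minutes) and -0.147 (exonic plus intronic), Smc4 at 0.022 and Vmp1 at -0.147 (15 minutes), with ranges of -0.1 to 0.387 (Vmp1), -0.114 to 0.365 (Mir17hg), -0.302 to 0.216 (Smc4), -0.913 to 0.182 (Rian) and -0.245 to 0.741 (Sfmbt2) when a culture was left out. In WT labelled against preexisting RNA, Rian was at -0.481 (centred) and -0.227 (15 minutes), and without a culture Rian ranged from -0.285 to 0.289, Mirg from -0.169 to 0.028 and Sfmbt2 from -0.176 to 0.071. In intronic labelled RNA, Rian was at -0.255 (centred) and -0.011 (10 minutes), and without a culture Rian ranged from -0.197 to 0.253, Meg3 from -0.667 to 0.01 and Sfmbt2 from -0.226 to 1.062. In intronic preexisting RNA, Rian was at 0.147 and Vmp1 at -0.175 (10 minutes), Mir17hg at 0.037 and Mirg at -0.045 (15 minutes), and without a culture Mir17hg ranged from -0.758 to 0.171 and Rian from -0.371 to 0.299. Scaled by TMM, miR-25-3p was at 0.252 (day 8) and 0.334 (day 4), miR-15b-5p at 0.547, 0.152 and 1.184 (days 8, 4 and 12) and miR-21a-5p at 1.364, 0.535 and 1.594 (edgeR adjusted p = 1.24e-06, 0.00709 and 3.1e-07). Without a replicate, miR-21a-5p at day 4 ranged from -0.355 to 0.001.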
